A study of Mus musculus with 4 samples.

Results

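The proteasome is the cell's main protease for ubiquitin-tagged proteins, and its genes were followed here through an m6A-seq study of mouse macrophages. The set comprised every row of the deposited tables whose gene name starts with Psm, a letter from a to g and a number, together with Adrm1. That rule found 37 gene names of 13067 in the series, with 54 of 21031 peaks in the KO list, 32 of 16709 in the WT list and 20 of 6050 in the table of differential peaks. Among the 37 names, Psmb7-ps2 is a pseudogene and Psmc3ip encodes a recombination factor and no proteasome subunit. KO macrophages had the genotype Mettl3fl/fl with LysM-cre (LyzM-cre in the design text), in which Cre is driven by the lysozyme 2 gene of myeloid cells, and WT macrophages had Mettl3fl/fl without Cre, so floxed alleles were common to both. Both were C57BL/6 bone marrow cells grown for 7 days with macrophage colony-stimulating factor. Each genotype gave 1 IP library, of RNA fragments precipitated with an m6A antibody, and 1 input library of unprecipitated RNA. No difference therefore has a replicate check, and no test was run over genes or peaks. Binomial intervals cover counting error only.

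Mettl3, which encodes the catalytic subunit of the m6A writer, had 1 peak in the KO list, none in the WT list and no differential peak, and without an input level for it the deletion itself was left unchecked. Input levels are listed only for genes with a differential peak. Of 8 macrophage markers 5 had one, summing to 8038 FPKM in KO and 11940 FPKM in WT, and 2 of 5 neutrophil markers summed to 137 FPKM in KO and 233 FPKM in WT. The macrophage sum was mostly Lyz2, the gene that carries Cre, at 6615 FPKM in KO and 10533 FPKM in WT. Of the other macrophage markers, Adgre1 had 269 FPKM in KO and 247 FPKM in WT, Fcgr1 58.4 FPKM in KO and 40.6 FPKM in WT, Spi1 101 FPKM in KO and 90.5 FPKM in WT, and Cd68 994 FPKM in KO and 1029 FPKM in WT. One B cell marker was listed, at 0.734 FPKM in KO and 1.12 FPKM in WT. No marker of T and NK cells, dendritic cells, erythroid cells or stromal cells had a listed level, and the part of such shifts in the results was not tested. In bulk RNA, fewer cells of a type and less RNA per cell cannot be told apart. Read depth is unknown, since the tables hold no read totals.

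Proteasomes join a barrel-shaped core particle, built from outer alpha rings and inner beta rings that carry the proteolytic sites, to a regulatory particle whose ATPases unfold the substrate and whose receptors bind ubiquitin. Interferon replaces the constitutive catalytic beta subunits by Psmb8, Psmb9 and Psmb10, and this immunoproteasome is abundant in myeloid cells, where it makes peptides for MHC class I. The mark m6A lies mostly near stop codons and in 3′ UTRs and is read by proteins that affect splicing, decay and translation of the transcript.

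Only at 5′ ends could a peak be set beside sequence, since the RefSeq promoter windows (build GRCm38.p6) reach 50 bases into the gene. The first 30 bases of the peaks at the starts of Psme4 and Psme3, which encode 2 proteasome activators, are printed because both peaks began at the same base in KO and WT. Capitals mark the letters around a possible m6A site, searched on the transcript strand only as the core GGACN with the variants called AGACN and TGACN, and with GAACN beside AAACN or TAACN. The Psme4 stretch is chr11:30771726-30771755 and the Psme3 stretch chr11:101316213-101316242, both on the plus strand.
Psme4: aagTGACTtgaggccggtccgGAACCtccc
Psme3: aacttccggcgtgagcggcgaaagccggga
The Psme4 stretch held 2 of these letter groups, but its peak opened 49 bases before the RefSeq start of the gene, so the whole stretch and both groups lie upstream of the annotated transcript. None stood in the first 30 bases of the Psme3 peak, which says only that these letters are not in that window. Of 32851 promoter windows, 40.5% held at least 1 group at the place of the Psme4 stretch and 42.5% at that of the Psme3 stretch.

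The first question was whether peaks named after proteasome genes lay in those genes. Each peak carries 1 gene name given by the authors, and 12 of 54 KO peaks and 8 of 32 WT peaks did not touch the RefSeq extent of the gene they were named for. Some of them were enriched in both genotypes. A pair named Psmc3ip, at 5.69-fold and 5.90-fold in KO and at 8.85-fold and 4.80-fold in WT, lay in Retreg3, the gene of a reticulum-shaping protein. A peak named Psmd4, at 5.64-fold in KO and 4.29-fold in WT, lay in Pip5k1a, a lipid kinase gene. The Psmc5 peaks of the WT list, at 3.28-fold and 1.79-fold, lay in Ddx42, an RNA helicase gene. Peaks named Psmd9 lay in the methyltransferase gene Setd1b in both lists, 2 named Psmg1 in the KO list lay in Brwd1, and 1 named Adrm1 in each list lay in Osbpl2. Of the remaining peaks, 1 named Psmd8 lay in Catsperg1, at 7.08-fold in KO with a false discovery rate of 0.689, and 1 named Psmd5 lay in Cutal, at 7.14-fold in WT with a false discovery rate of 0.571. At the MHC locus 2 of the 3 KO peaks named Psmb8 lay in Tap1, the peptide transporter gene next to it. The long peak named Psme2b, at 8.58-fold in KO and 11.6-fold in WT, lay outside that gene in KO and reached into it by 171 of 2388 exonic bases in WT. In the whole table of differential peaks 82.8% of peaks with a RefSeq name touched the gene they were named for, and 16 of 20 did so here. No such share is given for the whole KO and WT lists, so the counts of 12 and 8 have no background.

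The reverse also occurred. The list of roles held 51 genes, of which 36 were named in some table and 15 were not. Of these 15, 10 had a peak of the KO list inside them that carried a neighbour's name, namely Psma1, Psma2, Psma5, Psmb5, Psmb7, Psmc6, Psmd11, Psmd12, Psmd14 and Psmg3, and 3 had one in the WT list, namely Psmb7, Psmc6 and Psmd11. Psma8, Psmb2, Psmb11, Psmd2 and Psmg4 had no peak in them under any name. Psma8 belongs to testis and Psmb11 to the thymus, whereas Psmb2 encodes a beta subunit and Psmd2 a base subunit of the regulatory particle.

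Peaks inside proteasome genes were mostly in 3′ UTRs, and their fold was mostly below the median of the list. After removal of peaks that did not touch their gene, 42 peaks in 34 genes stood in the KO list and 24 in 22 genes in the WT list. The KO over WT count ratio was 1.75, against 1.26 for all peaks. The 24 include the long WT peak named Psme2b, whose KO partner was removed. The 3′ UTR held 35 of the 42 KO peaks (83.3%, exact binomial interval 68.6 to 93.0) and 18 of the 24 WT peaks (75.0%, 53.3 to 90.2), beside 64.1% and 59.6% of all peaks of the KO and WT lists. Fold enrichment is the authors' own value for each peak and ranks peaks only within a list. Its median was 2.32-fold in KO against a median of 3.15-fold over the whole KO list, and 2.07-fold in WT against 3.74-fold over the whole WT list. In KO 29 of 42 and in WT 18 of 24 were below the median of their list. A false discovery rate of 0.05 or more was given to 10 of the KO peaks (23.8%) and 3 of the WT peaks (12.5%). Over the whole lists it was given to 35.1% of KO peaks and 29.8% of WT peaks.

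**Figure D1:**
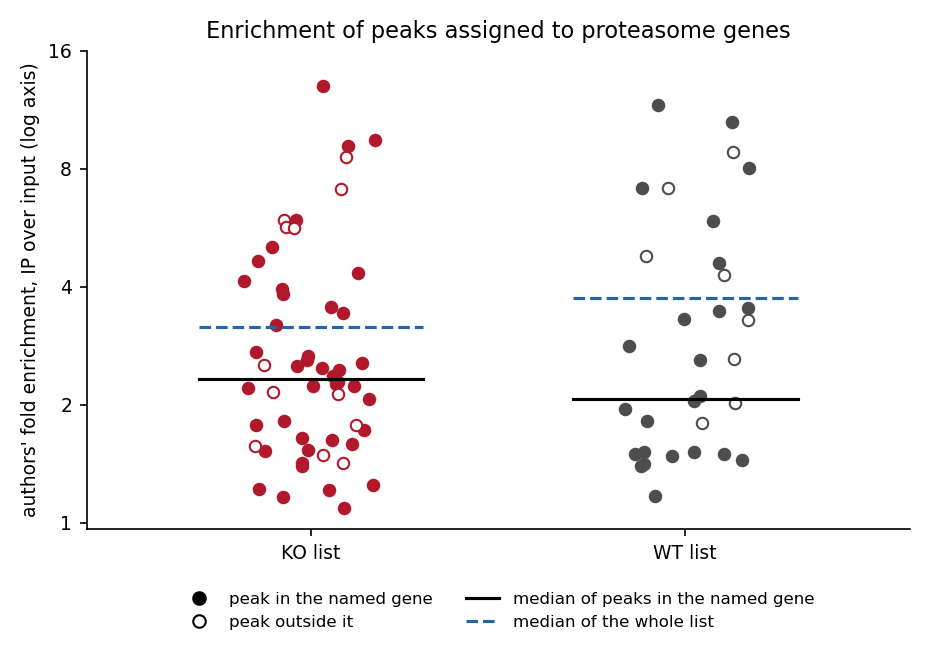
Fold enrichment of IP over input (log axis) for each peak named after a proteasome gene, KO list at left and WT list at right. Filled points share at least 1 base with the named gene and open points none. The WT point of Psme2b at 11.6 is filled with 171 of 2388 exonic bases in the gene, and its KO partner at 8.58 is open. Solid lines, the medians of filled points (2.32 in KO, 2.07 in WT), lie below the dashed medians of the whole lists (3.15 and 3.74).

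Most WT peaks had a partner in KO. Of the WT peaks in proteasome genes 21 of 24 shared an exonic base with a KO peak (87.5%, 67.6 to 97.3), beside 73.4% of all WT peaks, and of the KO peaks 23 of 42 shared one with a WT peak (54.8%, 38.7 to 70.2), beside 61.6% of all KO peaks. Both intervals include the share of the whole list. Of 35 names with a peak in the gene itself, 21 (60.0%) had one in both lists and 13 (37.1%) in the KO list alone, beside 66.5% and 23.1% of all such genes. Those 13 were Adrm1, Psma6, Psma7, Psmb4, Psmb6, Psmc3, Psmc3ip, Psmd3, Psmd6, Psmd10, Psme1, Psme2 and Psmg1. Psmb7-ps2 was alone in having one in the WT list only, and its peak, at 7.14-fold with a false discovery rate of 0.571, also lay in Gm6787. For Psmd3 and Psme1 a name in KO alone does not mean a site in KO alone, since a WT peak named after Csf3, at 1.85-fold, lay at the 3′ end of Psmd3 and 1 named after Emc9 reached into Psme1. Psmd1, the base scaffold, had 13.0-fold in KO and 2.10-fold in WT at its own name, while a WT peak of 26.5-fold named after Htr2b covered the same site, so its 2 values cannot be set side by side.

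The second question was where enrichment differed between genotypes. According to the authors' deposited table, 11 of the 20 peaks named after proteasome genes were higher in KO and 9 lower, whereas 30.4% of all listed peaks were higher and 69.6% lower. That table holds only peaks with a p below 0.05, which compares the reads of these libraries and not the genotypes. All 4 peaks outside their gene were lower in the authors' deposited table, at -0.66 and -0.29 (log2 of KO over WT) for the peaks in Retreg3 (the second against list folds of 5.90 in KO and 4.80 in WT, the opposite order), -0.35 for that in Ddx42 and -0.29 for that named Psme2b. Inside proteasome genes 11 peaks were higher and 5 lower, in 15 genes, with a median log2 ratio of 0.42, beside a median of -0.40 over the authors' deposited table. Of the 37 names, 18 (48.6%) had a differential peak, beside 36.0% of all genes with a peak in either list.

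**Figure D2:**
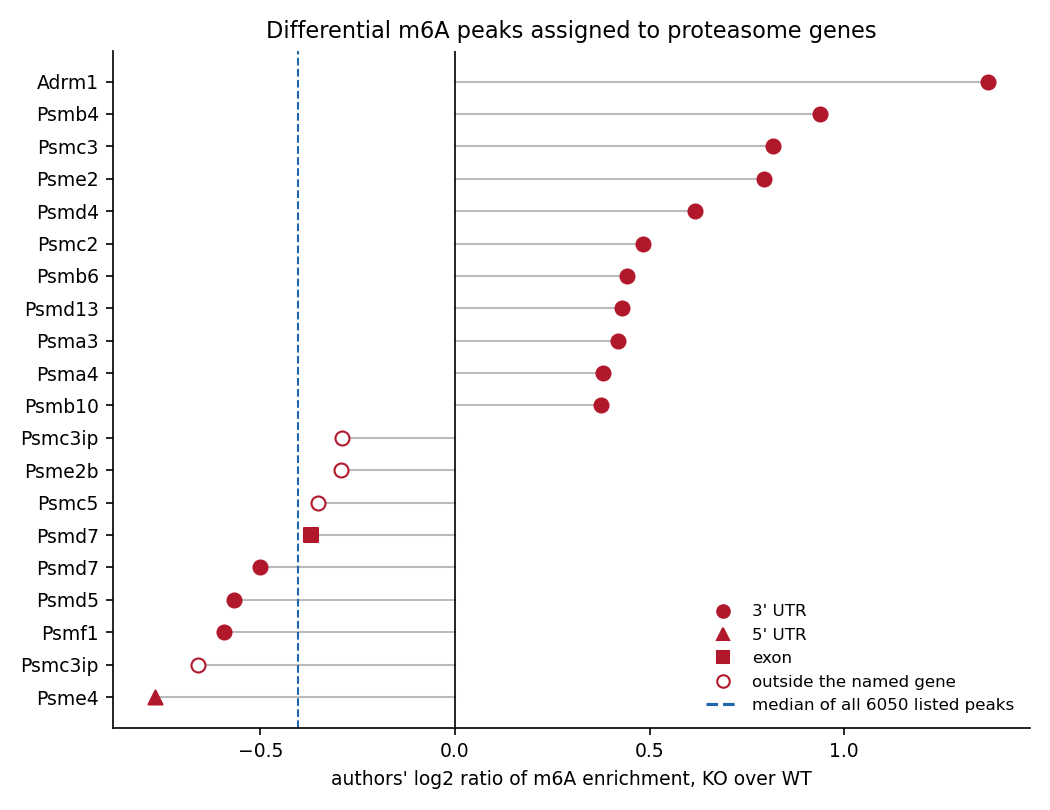
Log2 ratio of enrichment, KO over WT, of the 20 differential peaks named after proteasome genes, sorted by ratio; circles are 3′ UTR, the triangle 5′ UTR and the square exon peaks, and open circles lie outside the named gene. All 11 peaks right of 0 lie in 3′ UTRs of the named gene, and all 4 open circles lie left of 0; the dashed line is the median of all listed peaks (-0.40).

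All 5 differential peaks inside core particle genes were higher in KO. They lay in 3′ UTRs of transcripts whose mean input exceeded 10 FPKM. At such levels 51.8% of all listed 3′ UTR peaks were higher, and 81.0% of the weak ones (own p above 2.25e-30). All but the Psmb10 peak were weak by that cut. The count is therefore not read as a trait of core particle genes. The alpha ring gates entry to the core, and the authors' deposited table gave its genes Psma4 and Psma3 log2 ratios of 0.38 (p 3.8e-05) and 0.42 (p 0.00123). In the peak lists Psma4 was at 2.72-fold in KO and 2.04-fold in WT, and Psma3 at 1.59-fold in KO and 1.17-fold in WT, the WT peak of Psma3 with a false discovery rate of 0.110. The Psma3 sites also lay in the extent of 3110056K07Rik, so their reads may belong to either gene. Psma6 at 1.64-fold and Psma7 at 1.53-fold were weak KO peaks without WT partner or differential peak.

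Among beta subunits, the non-catalytic Psmb4 had a log2 ratio of 0.94 and the lowest difference p of the 11 higher peaks, 2.0e-12, in the authors' deposited table. Its KO peak stood at 2.23-fold with no WT partner, and 331 of its 562 exonic bases lay inside the gene. Psmb6, a constitutive catalytic subunit, was at 0.44 (p 0.00646) in the authors' deposited table, with 1.39-fold in KO and no WT peak. The immunoproteasome subunit Psmb10 was at 0.38 (p 0.00832) in the authors' deposited table, with 3.43-fold in KO and 2.60-fold in WT. The other immunoproteasome genes had no differential peak listed. Psmb9 held a 3′ UTR peak at 3.94-fold in KO and 3.47-fold in WT, at overlapping positions. Psmb8 held a 3′ UTR peak of 1.25-fold in KO and an exon peak of 4.59-fold in WT, at separate positions. Psmb3 stood at 5.90-fold in KO and 1.41-fold in WT and Psmb1 at 1.52-fold in KO and 1.48-fold in WT, neither with a listed difference.

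In regulatory particle genes 5 peaks were higher, each in a gene of its own, and the 2 lower ones were both in Psmd7. Adrm1, a ubiquitin receptor of the base, had the largest log2 ratio of the set, 1.37 (p 0.00117) in the authors' deposited table. Taken out of the log, that is a KO over WT ratio of 2.58. The KO peak of Adrm1, at 3.20-fold on chromosome 2 from 180175688 to 180176286, had no WT partner. No WT fold can therefore be set beside that ratio. Psmd4, another ubiquitin receptor, was at 0.62 (p 0.00158) in the authors' deposited table, with 2.45-fold in KO and 1.50-fold in WT. For the ATPase genes Psmc2 and Psmc3 the authors' deposited table gave 0.48 and 0.82, and Psmc2 was at 2.28-fold in KO and 1.44-fold in WT. The Psmc3 difference had a p of 0.0195 and a false discovery rate of 0.0550, and the KO peak at this site carries the name Slc39a13, at 2.36-fold. Psmc1, at 3.54-fold in KO and 1.51-fold in WT, and Psmc4, at 1.72-fold in KO and 1.39-fold in WT, had no difference listed. In the lid, Psmd13 was at 0.43 (p 0.0170) in the authors' deposited table and had one of the stronger peaks, at 9.15-fold in KO and 8.02-fold in WT.

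Psmd7, the lid partner of the deubiquitinase Psmd14, had 2 lower peaks, its 3′ UTR peak at -0.50 (p 5.0e-16) and an exon peak at -0.37 (p 0.0166) in the authors' deposited table. The 3′ UTR peak is a long one, with 1012 exonic bases in KO and 1161 in WT. In the lists that site stood at 5.04-fold in KO and 2.82-fold in WT, the opposite order from the ratio in the authors' deposited table, and the WT peak reached further upstream. The exon peak stood at 1.21-fold in KO, with a false discovery rate of 0.267, and at 1.51-fold in WT.

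Among activators, the inhibitor and the chaperones, 1 peak was higher and 3 were lower. Psme4, the nuclear activator linked to histone turnover, had the lowest ratio inside a gene of the set, -0.77 at its 5′ UTR (p 0.0417, false discovery rate 0.101) in the authors' deposited table, with 4.64-fold in KO and 10.5-fold in WT. The differential peak starts right after the printed stretch, which holds none of its bases. Psme3, another nuclear activator, had its 5′ UTR peak at 2.55-fold in KO and 3.31-fold in WT and no listed difference. Psmf1, known as an inhibitor of the core particle in vitro, was at -0.59 (p 0.00724) in the authors' deposited table, with 2.51-fold in KO and 3.52-fold in WT. The base assembly chaperone Psmd5 was at -0.57 (p 6.0e-04) in the authors' deposited table, with 1.77-fold in KO and 1.95-fold in WT. On chromosome 2 its KO peak ran from 34852104 to 34852494 and its WT peak from 34852404 to 34854332. They fell short of 50% reciprocal overlap, so the 2 folds are not of the same stretch. Psmg2, a chaperone of the alpha ring, had a peak at 3.84-fold in KO and 5.87-fold in WT without a listed difference. Psme2, which with Psme1 forms the interferon-inducible activator, was higher in its 3′ UTR, at 0.79 (p 1.5e-06) in the authors' deposited table, with 2.26-fold in KO and no WT peak. Psme2b is a close copy of Psme2, so reads of the pair may be divided between them and these values are uncertain. Subunits of the core and regulatory particles together had 10 higher and 2 lower peaks inside their genes. Of all listed peaks 30.4% were higher. Among weak 3′ UTR peaks (own p above 2.25e-30) of abundant transcripts (mean of at least 10 FPKM) 81.0% were. Not all 12 peaks are of that kind. Adrm1 had a mean of 9.14 FPKM, and the 3′ UTR peaks of Psmb10, Psmd13 and Psmd7 had a lower own p. The other Psmd7 peak was in an exon. The count is no result about these subunits, and the difference from the other roles was not tested.

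The 5 differential peaks inside proteasome genes that carry other names were all higher in KO. The authors' deposited table gave 0.95 for Psmb5 (named Mir686), 0.76 for Psma2 (named AW209491), 0.51 for Psmc5 (named Gm23645), and 0.55 for both of 2 overlapping peaks in Psmb7 (named Gm13586 and Gm44183). The constitutive catalytic genes Psmb5, Psmb6 and Psmb7 are thus all among those with a higher 3′ UTR peak. Of all listed 3′ UTR peaks 36.8% were higher, and of the weak ones of abundant transcripts 81.0%. No input level is listed under the names Psmb5 and Psmb7, so which share is the like one cannot be told. The count is no result about these genes. These 5 peaks lie outside the naming rule and were looked up after the others had been seen.

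The direction was read against peaks of like position, level and strength. Of the 14 differential 3′ UTR peaks inside proteasome genes 11 were higher (78.6%, 49.2 to 95.3). Where the mean input reached 10 FPKM, 10 of 11 were higher, whereas 51.8% of all 3′ UTR peaks of such genes were higher in the authors' deposited table. Among those whose own peak p was above the table's median of 2.25e-30, thus the weaker peaks, 8 of 8 were higher, beside 81.0% of all such peaks, whose median log2 ratio was 0.50 in the authors' deposited table. Against abundant transcripts with weak 3′ UTR peaks, then, the share for proteasome genes was near the background and is no result about these genes.

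**Figure D3:**
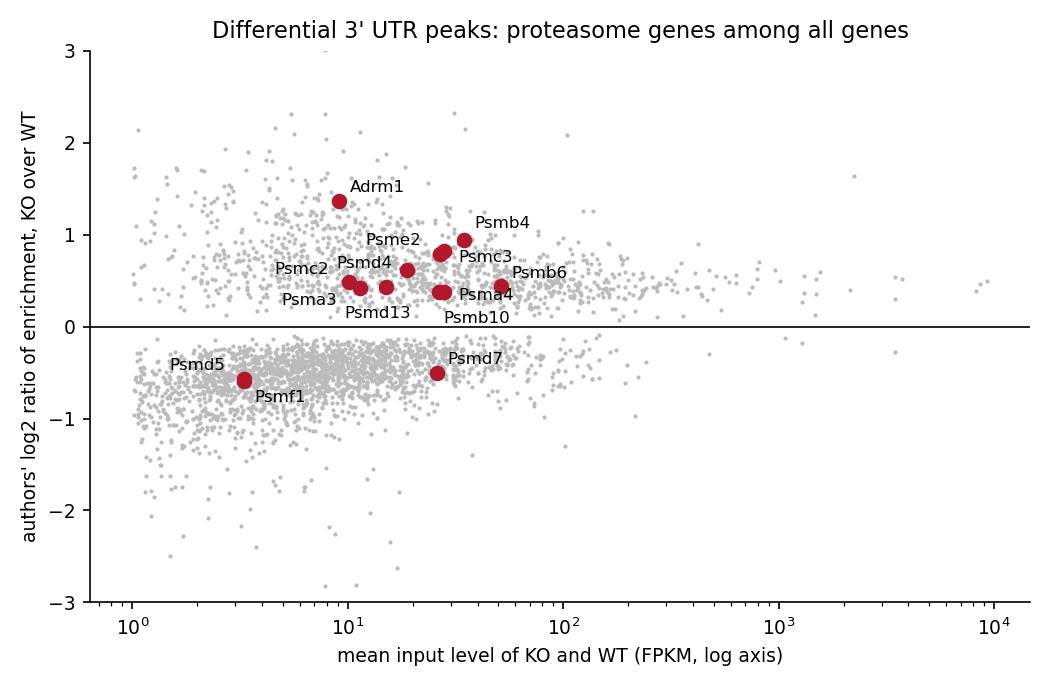
Log2 ratio of enrichment, KO over WT, against the mean of the KO and WT input levels (FPKM, log axis) for differential 3′ UTR peaks of genes whose mean reached 1 FPKM; red points are the 14 peaks inside proteasome genes and grey points all other genes, with 8 peaks beyond the plotted range. The 11 higher red points lie between 9.14 and 51.6 FPKM, and of the lower points those of Psmd5 and Psmf1 lie near 3.30 and 3.29 FPKM and that of Psmd7 at 26.0 FPKM, inside the range of the higher ones.

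Higher and lower peaks also differed in place and size. Of the 11 higher peaks 9 ended within 50 bases of the RefSeq end of the gene, all but those of Psmb6 and Psma3, and 1 of the 3 lower 3′ UTR peaks did, that of Psmd7. Over all genes the shares were 62.6% of higher and 21.8% of lower 3′ UTR peaks that lie in the named gene. The higher peaks were short, with 120 to 301 exonic bases and a median of 210, and the 5 lower ones had 150 to 1042 with a median of 421; over the whole table the medians were 209 and 804. All 5 lower peaks overlapped a peak in both lists, as did 92.7% of the 4212 lower peaks of the table for the KO list and 4212 of 4212 for the WT list. The 11 higher ones all overlapped a KO peak, as did 1838 of the 1838 higher peaks of the table, and 6 of them a WT peak, beside 64.7% of all higher peaks.

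The third question was whether the transcripts themselves differed in the input. Levels are listed for 18 of the names and 17 passed the filter of a mean of 1 FPKM, Psmc3ip falling below it at 0.494 FPKM in KO and 0.324 FPKM in WT. None of the 17 reached a log2 difference of 0.5 on the log2(FPKM + 1) scale in either direction, beside 2.91% of all listed genes. Differences ran from -0.23 to 0.22 with a median of 0.04, and 11 of 17 were above 0, beside 69.0% of listed genes and their median of 0.07. Relative to that median 4 were above and 13 below. All adjusted p-values that the authors' deposited table gives for these genes are 1.

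All values by gene follow, each from 1 library per genotype. Psmb6 had the highest level and the largest decrease, with 47.5 FPKM in KO and 55.7 FPKM in WT. Psmb4 had 33.3 FPKM in KO and 35.8 FPKM in WT, and Psmd13 14.5 FPKM in KO and 15.7 FPKM in WT. Psmc3 had 27.5 FPKM in KO and 28.4 FPKM in WT, and Psma3 11.3 FPKM in KO and 11.6 FPKM in WT, which completes the 5 largest decreases. The immunoproteasome gene Psmb10 was nearly level at 26.3 FPKM in KO and 26.8 FPKM in WT, as was Psme2 at 27.2 FPKM in KO and 26.4 FPKM in WT. These interferon-inducible genes thus differed by -0.03 and 0.04 on the log2(FPKM + 1) scale. Psma4 had 28.4 FPKM in KO and 27.5 FPKM in WT, Psmc5 31.4 FPKM in KO and 30.4 FPKM in WT, Psmd4 19.2 FPKM in KO and 18.5 FPKM in WT, and Psmc2 10.2 FPKM in KO and 10.1 FPKM in WT.

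At the other end Psmf1 had 3.62 FPKM in KO and 2.96 FPKM in WT and Psmd7 28.0 FPKM in KO and 24.1 FPKM in WT. Psmd5 had 3.56 FPKM in KO and 3.04 FPKM in WT, Psme2b 32.1 FPKM in KO and 29.1 FPKM in WT, and Adrm1 9.35 FPKM in KO and 8.92 FPKM in WT. Psme4 stood at 7.80 FPKM in KO and 7.72 FPKM in WT. The 4 genes with lower peaks inside them, Psmd5, Psmd7, Psme4 and Psmf1, were all above 0 (0.01 to 0.22), whereas the 11 with higher peaks ran from -0.23 to 0.06, with 6 below 0. The same input libraries are the denominator of the peak ratio. Over all listed genes the median input difference was 0.01 where the median peak ratio was above 0 and 0.10 where it was below 0.

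**Figure D4:**
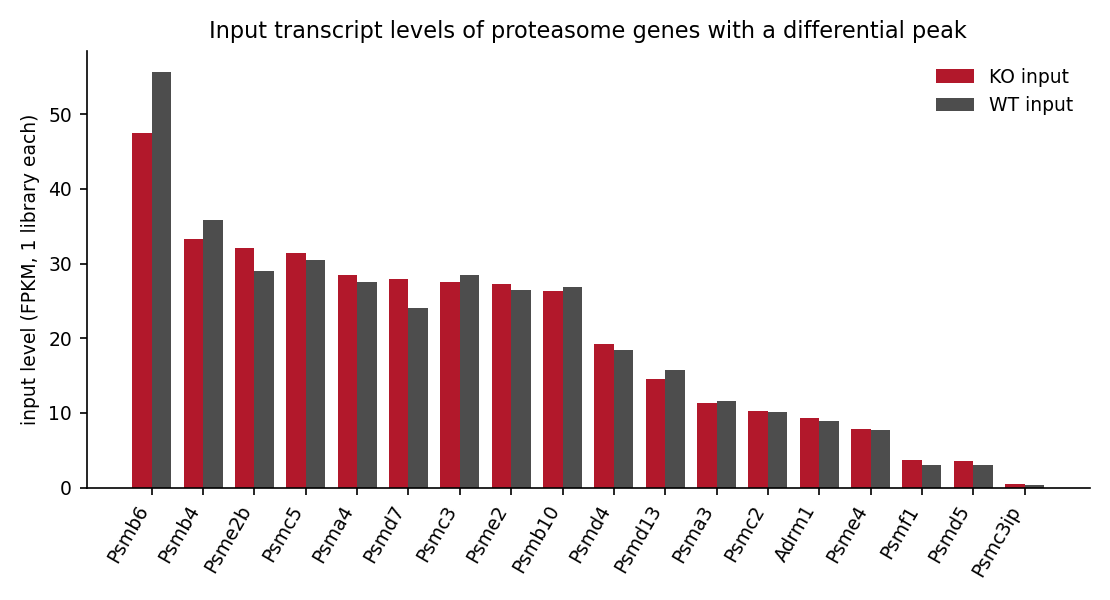
Input levels in FPKM of the 18 proteasome names with a listed level, KO bar left of WT bar for each gene, 1 library per bar and so no error bars. Psmb6 is the highest, at 47.5 in KO and 55.7 in WT, and no gene that passed the filter differs by 0.5 or more on the log2(FPKM + 1) scale.

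A list of 33 symbols around the proteasome was read beside these genes. Of these symbols 25 had a peak in the KO list, and no other symbol had one in the WT list. Differential peaks numbered 15 in 12 of these 25 genes, 8 higher and 7 lower in the authors' deposited table, with a median log2 ratio of 0.29. Over all genes 36.0% of those with a peak had a differential peak, and 30.4% of listed peaks were higher. The maturation factor Pomp was at 0.70 and the small lid subunit Sem1 at 0.33 in the authors' deposited table, while Akirin2, Ecpas, Paaf1, Usp14, Uchl5 and Ube3c had no differential peak. The 3 listed peaks of ubiquitin and its activation, all in 3′ UTRs, were higher in the authors' deposited table. They stood at 0.69 for Rps27a, 0.51 for the activating enzyme Uba1 and 0.29 for Ubb. All 3 genes had input levels above 10 FPKM, where 51.8% of all 3′ UTR peaks were higher. The count is therefore not read as a trait of this group. Ubiquitin genes are repetitive and close copies of them exist, so their reads may be shared. Nfe2l1, the transcription factor that raises proteasome genes when proteasomes fail, had 3 lower peaks, from -0.41 to -0.33, and 1 higher at 0.36 in the authors' deposited table, with 32.7 FPKM in KO and 32.7 FPKM in WT. In peptide loading, Tapbp and Tap2 were lower at -0.65 and -0.55 and B2m was higher at 0.40 in the authors' deposited table, though the peak named Tapbp does not touch that gene. Among shuttle factors and unfoldase cofactors, Nsfl1c was higher at 0.58 and Zfand5 and Ubqln4 lower at -0.43 and -0.35 in the authors' deposited table. Of the 12 genes 8 had an input difference above 0, with a median of 0.06, beside 69.0% of listed genes and their median of 0.07.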

How the data were processed

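Per the labels, poly(A) RNA of each genotype was fragmented, part of it was precipitated with an m6A antibody, and both were sequenced as 4 libraries. Tools named in the submitters' processing notes, with no roles, are edgeR, StringTie, HISAT2, fastp, ChIPseeker and HOMER; mm10 is the build there. Which of them called peaks, and how the differential ratio was computed, is not given in these sources. Per the file headers, the authors deposited for each peak a fold enrichment (IP divided by input) and a p-value, which stands as the score. Log10 values of p and false discovery rate are given beside it. The authors' differential table gives a log2 ratio of KO over WT with a p-value, and input levels in FPKM, per the file headers. Peaks were called on 1 IP and input pair per genotype.

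Starts are printed counting from 1, since block sizes show that the files count from 0. Overlaps used exonic blocks, ignored strand and needed 1 base (bedtools 2.31.1, checked on simulated peaks). RefSeq gene extents were of the same build (GRCm38). FPKM differences were log2(FPKM + 1), KO minus WT, for a mean of at least 1 FPKM, a scale that understates differences of low genes. Shares have exact (Clopper-Pearson) intervals at 95%. Depth is unknown. The members, the lists and their rules were chosen with earlier results of these data known. The rule named every member with a differential peak, the catalytic subunits, the activators, and the 5 largest increases and decreases of input level. The cut at 10 FPKM, the split by peak p and the window at the gene end were set after values were seen. Tables were handled with pandas 2.3.3 on Python 3.11.15, intervals came from scipy 1.17.1 with numpy 2.4.6, and matplotlib 3.10.9 drew the figures. Some genes of the surrounding pathway are not reported here and are left out of its counts.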

Additional observations from a re-analysis of the deposited data

How the results depend on the processing

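No paired analysis was possible because each genotype has 1 library of each kind. Peaks of at least 4-fold numbered 13 in KO (24.1%) and 10 in WT (31.3%), against 54 and 32 peaks by name. Of all peaks 40.5% in KO and 48.0% in WT reached 4-fold. Peaks with a p of at most 1e-10 numbered 16 in KO and 10 in WT, with no share over all peaks given here. Of the 11 higher and 9 lower differential peaks, 4 and 4 had a p under 0.001, and 1 and 0 a log2 ratio of at least 1 in size. Lower peaks numbered 5 about the median of the table, 5 in the named gene, 5 with peaks under other names added (where higher peaks numbered 16), and 4 when counted per gene; the last 2 counts were chosen after seeing the data. Higher peaks about that median numbered 15. At a false discovery rate under 0.05, 10 higher and 8 lower remained, beside 4815 of the 6050 peaks of the whole table. The median input difference turned to -0.030 when the median of all listed genes was subtracted. The other 4 planned and 1 added settings for input kept it above 0, and a lower and a higher fold threshold also called no gene. Over all peaks by name, 51.9% in KO (37.8 to 65.7) and 81.3% in WT (63.6 to 92.8) had a counterpart. Over the whole lists 61.6% and 73.4% did. With 50% reciprocal overlap 40.7% and 68.8% of the peaks by name had one. The shares of the whole lists at 50% are not given here, so those at 1 base are no background for them. With 1 library per group no library could be left out.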
